A study of Mus musculus with 33 samples.

Results

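P2ry12, P2ry13, Tmem119, Gpr34, Cx3cr1, Sparc and Olfml3 are genes by which homeostatic microglia are commonly recognised. These 7 genes were followed by name through every macrophage type, tissue and sort of a mouse single-cell RNA sequencing study, and all 7 were found among the 32245 unique gene symbols of the deposited count tables. The study used SAMENT, in which injected tumour cells carry an enzyme that puts biotin on the cells beside them. After overnight labelling (about 10 hours) the tissue was dissociated, and cells with and without biotin were sorted apart. In the intracardiac experiment, bone, brain, liver and lung were each taken as a positive and a negative sort with 4 replicates per group, which gave 32 samples. In a second experiment, which the labels call IIA, bone from 6 injections was sorted in the same manner and read as 1 pool of 12 hashtagged samples. All groups carried injected tumour cells and received the labelling, so the biotin negative cells of the same tissue are the comparison and no tumour-free tissue was analysed here. The labels name neither the tumour line nor the strain, genotype or age of the mice, and they do not say whether replicates came from separate mice, so each p-value measures only the spread between these samples.

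Microglia are the resident macrophages of the brain. At rest they survey the tissue through fine processes, and TGF-beta, CSF1 receptor signalling and lineage factors such as SALL1, MEF2C and PU.1 keep up their gene programme. P2RY12 and P2RY13 are receptors for ADP, and P2RY12 steers microglial processes towards injured cells. GPR34 is a receptor for lysophosphatidylserine, and CX3CR1 is the receptor for the neuronal chemokine fractalkine. TMEM119 is a surface protein used to tell microglia from blood-derived macrophages, SPARC is a secreted matricellular protein, and OLFML3 is a secreted olfactomedin-domain protein. Several of these genes are also used elsewhere in the body, CX3CR1 in monocytes, P2RY12 in platelets and SPARC in endothelial and stromal cells.

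In the mm10 genome (GRCm38, GENCODE vM21 annotation), P2ry13 (chr3:59207892-59210882) and P2ry12 (chr3:59216272-59262871) are neighbours on the minus strand of chromosome 3. Olfml3 lies on the same strand and chromosome at chr3:103722222-103738001. The minus strand also holds Tmem119 (chr5:113793729-113800516), Cx3cr1 (chr9:119901616-120069879) and Sparc (chr11:55394500-55423183), while Gpr34 (chrX:13632089-13640858) is on the plus strand. All 7 are annotated as protein coding. P2ry12 and P2ry13 lie within the span of Med12l and Gpr34 within that of Cask, both on the opposite strand. The annotated span of Cx3cr1 overlaps several genes, among them Wdr48 on the opposite strand and Gorasp1, Csrnp1 and Xirp1 on its own strand. No source used here gives the strand setting of the authors' counting, so reads of overlapping genes may be shared, and in microglia Med12l, Cask and Csrnp1 had levels of 48.8, 50.8 and 77.3 CPM (defined below).

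Promoter sequence was matched by symbol to RefSeq (GRCm38.p6) for 5 of the 7 genes, and the 250 bases before the start of 4 of them are shown because each holds 1 of the 2 factor motifs searched, the SMAD element in 3 of them and the PU.1 core in P2ry13. Each is written 5′ to 3′ on the gene's own (minus) strand and ends 1 base before the transcript start. The windows are chr3:59262986-59263235 for P2ry12, chr3:59210883-59211132 for P2ry13, chr9:120068297-120068546 for Cx3cr1 and chr11:55420081-55420330 for Sparc. Capitals mark matches to the PU.1 core GAGGAAG or to the SMAD element CAGAC, which were searched on both strands, and GTCTG is the SMAD element on the opposite strand.
P2ry12: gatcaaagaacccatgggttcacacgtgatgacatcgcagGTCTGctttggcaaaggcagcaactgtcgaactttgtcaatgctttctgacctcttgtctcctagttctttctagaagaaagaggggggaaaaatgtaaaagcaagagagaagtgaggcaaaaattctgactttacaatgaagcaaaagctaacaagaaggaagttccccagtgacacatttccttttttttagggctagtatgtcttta
P2ry13: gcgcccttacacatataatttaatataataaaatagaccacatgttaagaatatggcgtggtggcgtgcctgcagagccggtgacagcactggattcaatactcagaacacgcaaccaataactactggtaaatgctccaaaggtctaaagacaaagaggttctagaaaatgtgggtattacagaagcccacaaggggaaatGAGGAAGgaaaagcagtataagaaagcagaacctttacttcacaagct
Cx3cr1: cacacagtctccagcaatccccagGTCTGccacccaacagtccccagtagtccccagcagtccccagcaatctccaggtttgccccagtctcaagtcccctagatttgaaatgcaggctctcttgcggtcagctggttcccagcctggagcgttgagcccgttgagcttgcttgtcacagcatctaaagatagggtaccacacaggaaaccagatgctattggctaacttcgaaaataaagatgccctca
Sparc: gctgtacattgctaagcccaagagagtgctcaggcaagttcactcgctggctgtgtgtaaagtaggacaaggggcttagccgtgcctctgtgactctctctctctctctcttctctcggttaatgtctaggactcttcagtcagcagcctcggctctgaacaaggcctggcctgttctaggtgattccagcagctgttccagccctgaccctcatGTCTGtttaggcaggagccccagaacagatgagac

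The SMAD element stood 210 bases before the start of P2ry12, 226 before that of Cx3cr1 and 35 before that of Sparc, each time on the opposite strand. The PU.1 core stood 48 bases before the start of P2ry13, and no matches overlapped each other. Olfml3 held neither set of letters in its window (chr3:103738002-103738251, 57.6% GC, against 41.6% for P2ry12 and for P2ry13). Among all 32851 promoters of the same length, 10.6% held the PU.1 core and 42.2% the SMAD element. A match is a description of the sequence only, and these frequencies show that the SMAD element is common.

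The files held 57065 intracardiac and 26666 IIA cell barcodes, of which 55366 and 22362 were kept after cell filters and, for IIA, hashtag assignment. Intracardiac samples ranged from 482617 to 44834665 unique molecular identifiers (UMIs, one per captured RNA molecule) and from 2606 to 11313.5 UMIs in the median cell. Clustering without the 7 genes gave 30 intracardiac clusters, named from marker lists that do not hold them, and cells sharing a barcode across samples were few (325 barcodes, 0 of them within 1 replicate number). The microglia cluster held 447 cells, of which 415 came from biotin positive brain, 31 from biotin negative brain and 1 from positive liver. It was named from 10 of 12 markers, among them Fcrls, Siglech and Sall1. Border-associated macrophages, which line brain vessels and meninges, were named from Mrc1, Lyve1, Pf4 and related genes, and 851 of the 1312 cells of that cluster came from positive brain and 231 from negative brain. The Kupffer cell cluster (1467 cells) held 976 cells of positive liver and also 419 of positive bone, and its leading genes matched the marrow macrophage list nearly as well (9 markers against 10). The alveolar macrophage cluster (3975 cells) came almost wholly from positive lung (3891 cells).

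Levels below are in CPM, the UMIs of a gene scaled to a total of 1000000 UMIs over the cells of a class or tissue in 1 sample. The class levels are descriptions without a test, since clusters were made from the same cells. Each class takes its samples from every tissue. The border-associated class therefore includes samples from outside the brain, and the Kupffer cell class includes samples of bone. P2ry12 was highest in microglia at 1181 ± 539.5 CPM (SD, n = 5 samples with at least 10 such cells). Border-associated macrophages followed with 76.4 ± 44.3 (n = 14) and Kupffer cells with 56.7 ± 23.3 (n = 7), and these 2 classes overlapped, with ranges of 20.7 to 173.7 and 20.3 to 82.7. Alveolar macrophages were lower at 16.6 ± 6.16 (n = 6). P2ry13, the sister ADP receptor, had a flatter order, with 294.7 ± 55.9 in microglia, 85.1 ± 29.5 in Kupffer cells, 56.2 ± 25.0 in an unnamed cluster led by Ccrl2 and Il1b (n = 27), 40.1 ± 34.8 in border-associated macrophages, 29.1 ± 11.7 in alveolar macrophages and 27.7 ± 13.5 in neutrophils (n = 32). The sample ranges of the classes below microglia overlapped, with 31.8 to 132 in Kupffer cells, 14.8 to 48.8 in alveolar macrophages and 9.20 to 70.0 in neutrophils.

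Gpr34 reached 1125 ± 415.2 CPM in microglia, 97.5 ± 63.4 in border-associated macrophages and 22.9 ± 39.0 in the Kupffer cell cluster. That last mean came from 2 positive bone samples (81.8 and 77.9), while liver samples of the cluster held at most 0.341. T cells also held Gpr34, at 9.36 ± 9.18 (n = 29), and their mean lay above the liver Kupffer cells. An unnamed cluster led by Clu and Cpa3 ranged from 0 to 149.7, with a mean of 57.0 in negative bone (n = 4). Cx3cr1 was at 2544 ± 316.7 in microglia, where the lowest sample (2017) exceeded the highest border-associated sample (872, from outside the brain). Border-associated macrophages averaged 454.4 ± 227.0 for Cx3cr1, nonclassical monocytes 190.6 ± 92.4 (n = 25), conventional dendritic cells 97.2 ± 86.1 and classical monocytes 81.8 ± 47.0 (n = 27). Those neighbouring classes overlapped, so the order below microglia is not resolved by the samples. Tmem119 stood at 751.4 ± 222.7 in microglia and 53.7 ± 48.0 in border-associated macrophages, and next came an unnamed cluster, whose leading genes included Spp1 and Ppbp, at 14.3 ± 6.99 (n = 16). Olfml3 was at 371.9 ± 154.7 in microglia and 38.1 ± 31.3 in border-associated macrophages.

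Sparc had endothelial cells, not a macrophage type, as its second class. It was at 1930 ± 793.3 CPM in microglia, with samples from 1406 to 3298, and at 1241 ± 415.4 in endothelial cells (n = 12), with samples from 699 to 2083. These ranges overlapped, so microglia were not the only class with a high Sparc level. An unnamed cluster led by Clu, Cpa3, Gata2 and Sparc itself ranged from 0 to 3369, and border-associated macrophages were at 22.4 ± 38.1.

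**Figure D1:**
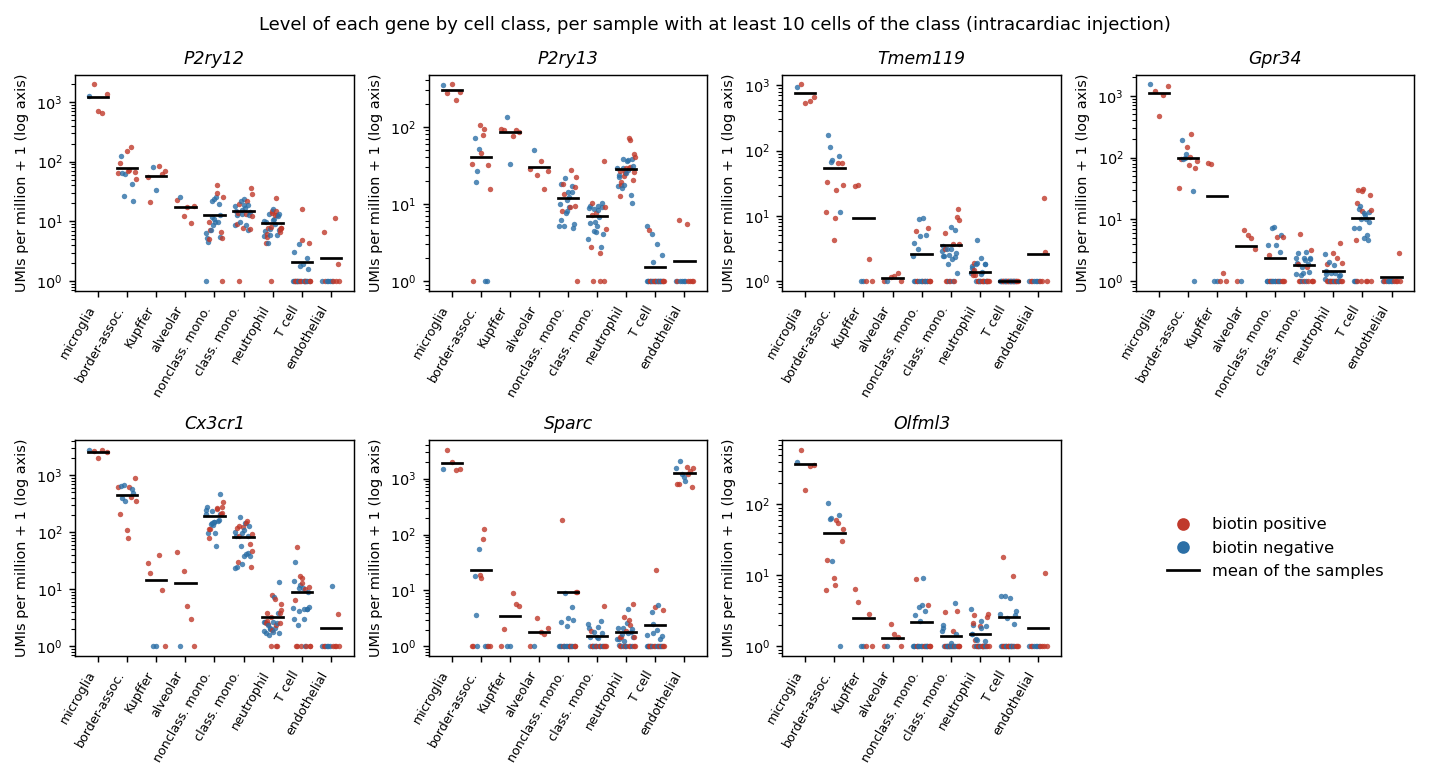
Level of each of the 7 genes (CPM plus 1, log axis) in 9 cell classes of the intracardiac experiment. Each point is 1 sample with at least 10 cells of the class, red for biotin positive and blue for biotin negative, and bars give the mean; microglia were highest for every gene in the mean, while the Sparc points of endothelial cells (699 to 2083) overlapped those of microglia (1406 to 3298).

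Within microglia, the 4 biotin positive brain samples held 18, 24, 70 and 303 of these cells (replicates 1 to 4), so the last is measured most closely. P2ry12 was at 1958, 691, 646 and 1348 CPM in these samples, a mean of 1161 ± 620.7 (SD, n = 4). The highest of these values came from the sample of 18 cells (225 UMIs of the gene). P2ry13 was steadier, at 269.7, 353, 222 and 279.8 CPM. Gpr34 was at 1192, 471, 1021 and 1414 CPM, lowest in replicate 2 and highest in replicate 4. Cx3cr1 was at 2628, 2017, 2788 and 2508 CPM, a mean of 2485 ± 332.5. The spread was thus smallest against the mean for Cx3cr1 and P2ry13 (281.1 ± 54.25) among these receptors and largest for P2ry12. Tmem119 was at 1035, 534, 585 and 664 CPM. Sparc was at 3298, 1946, 1406 and 1481 CPM. Olfml3 was at 592, 157, 349.5 and 364 CPM, so the first replicate was highest for Tmem119, Sparc and Olfml3 as it was for P2ry12.

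Only 1 biotin negative brain sample had at least 10 microglia (17 cells), so positive and negative microglia could not be tested against each other. In those 17 cells P2ry12 was at 1264 CPM, P2ry13 at 349, Tmem119 at 939, Gpr34 at 1529, Cx3cr1 at 2780.3, Sparc at 1517 and Olfml3 at 397. P2ry12, P2ry13, Tmem119, Sparc, Cx3cr1 and Olfml3 in that sample lay within the range of the positive samples, and Gpr34 lay above it.

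Cells differ in depth, so each was thinned to 1000 UMIs before cells were counted as holding a gene. Of the microglia of positive brain, 58.5% ± 15 (SD, n = 4 samples) then held a P2ry12 UMI, 26.0% ± 10.6 a P2ry13 UMI and 55.1% ± 14.3 a Gpr34 UMI. Cx3cr1 was found in 81.4% ± 12.9, Tmem119 in 46.7% ± 4.33, Sparc in 74.4% ± 10.1 and Olfml3 in 28.9% ± 21.0. Free RNA in the droplets was gauged from the neutrophils of the same samples (17 to 132 cells, median 4314 to 6720 UMIs, against 4680.5 to 5368 in microglia). No thinned neutrophil held Tmem119, Gpr34, Cx3cr1, Sparc or Olfml3 (0 of 309 cells, which allows up to 0.971%), while P2ry12 was seen in 0 to 2.73% and P2ry13 in 0 to 5.30% of them. The microglial shares lay above this background for all 7 genes.

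Counting genes per cell shows how far the 7 occurred together. A thinned microglial cell of positive brain held a median of 4 of the 7 genes, and 81.7% of 405 cells held at least 3 (50% to 94.4% across samples). In negative brain 80.0% of the 30 microglia held at least 3. Border-associated macrophages reached 3 genes in 1.00% of positive and 1.81% of negative brain cells, and no Kupffer cell of positive liver or alveolar macrophage of positive lung did (0 of 924 and 0 of 3874 cells, which allows up to 0.325% and 0.0774%). None of the 7 genes was seen in 95.3% of those alveolar macrophages and in 85.6% of those Kupffer cells. The other macrophage types therefore differed from microglia in the number of these genes per cell as well as in their level, by clusters made from the same data.

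**Figure D2:**
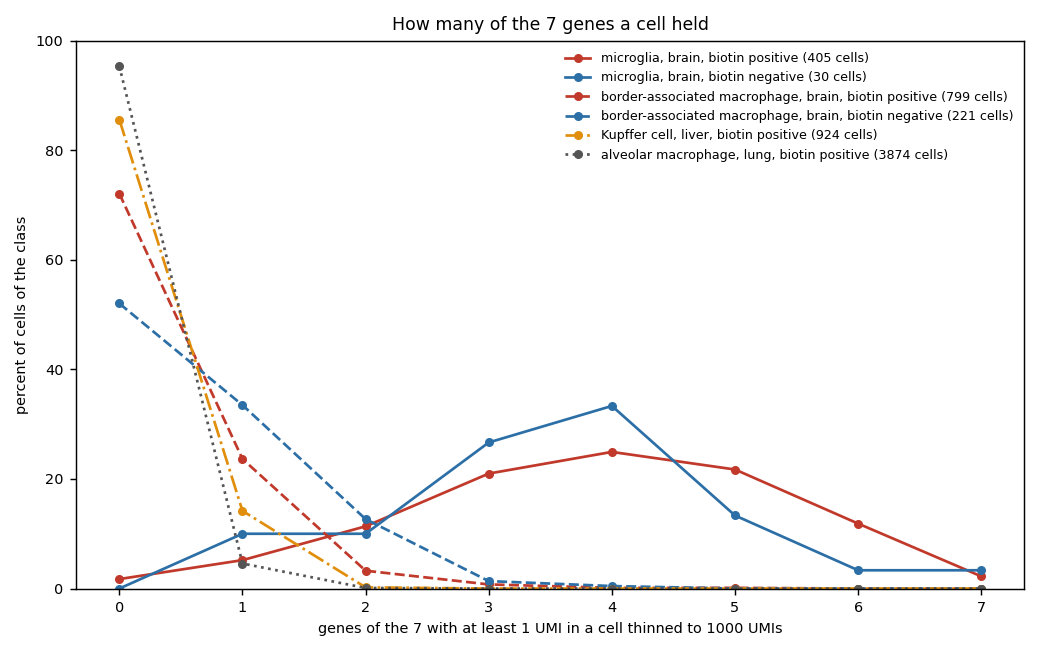
Percent of cells (vertical axis) by the number of the 7 genes detected in cells thinned to 1000 UMIs (horizontal axis) for microglia (405 positive and 30 negative brain cells), border-associated macrophages (799 and 221 brain cells), Kupffer cells of positive liver (924) and alveolar macrophages of positive lung (3874). Microglia peak at several genes per cell, and the other classes at none.

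The border-associated macrophages share the brain with microglia, and the 7 genes stood at different shares of the microglial level in them. Set against microglia of the same positive brain sample, their P2ry13 level was 39.0%, 12.5%, 34.4% and 33.4% in replicates 1 to 4. Their Gpr34 level was 12.2%, 15.6%, 9.8% and 17.0%, and their P2ry12 level 7.6%, 9.9%, 10.9% and 12.9%. These 3 receptors kept at least 7.6% of the microglial level in each replicate. Tmem119 was at 0.3%, 1.6%, 4.0% and 9.6% of the microglial level, and Sparc at 0.5%, 0.8%, 5.9% and 8.3%. Cx3cr1 (4.2%, 3.8%, 21.9% and 16.1%) and Olfml3 (1.4%, 4.0%, 16.8% and 14.7%) likewise were lower in replicates 1 and 2 than in 3 and 4. Replicates 3 and 4 also held the most microglia (70 and 303 cells), and the part of that in these values was not tested.

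Between the sorts, border-associated macrophages showed Tmem119 at 3.24, 8.42, 23.5 and 63.5 CPM in the positive brain samples (194, 538, 43 and 76 cells) and at 174.1, 113.6, 66.7 and 69.9 in the negative ones (15, 90, 78 and 48 cells). The 2 sorts did not overlap, with the negative cells higher, where 2.46% of genes were separated in that direction in brain macrophage types without microglia. In the edgeR quasi-likelihood fit of brain macrophage types without microglia, which leaves mostly these cells, the log2 difference of Tmem119 (positive minus negative) was -2.69 with an adjusted p of 0.0859. It was not called, and that fit called 0 of all 3976 genes tested. Cx3cr1 was at 110.1, 77.5, 612 and 404 CPM in positive and 644, 391, 667 and 349 in negative samples, which overlapped. P2ry12 was at 149, 68.2, 70.6 and 174 in positive and 122, 63.4, 25.9 and 59.9 in negative samples. P2ry13 was at 105, 44.2, 76.5 and 93.5 in positive and 69.6, 18.5, 25.9 and 49.9 in negative samples. Both ADP receptors thus overlapped between the sorts, as did Gpr34, Sparc and Olfml3, but within each of the 4 replicate numbers both were higher in the positive cells. Over all brain macrophage types other than microglia this did not hold in replicate 1, where 1 more negative cell put P2ry12 at 205 CPM against 149 and P2ry13 at 123 against 105. In the edgeR fit of these types P2ry12 differed by 0.56 and P2ry13 by 0.81 (adjusted p = 0.62 and 0.47), and neither they nor any other gene was called.

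In Kupffer cells of positive liver (75, 828 and 73 cells in replicates 1 to 3), the ADP receptors were found in each sample while Gpr34, Tmem119 and Olfml3 were at or near 0. P2ry12 was at 82.7, 60.8 and 67.6 CPM and P2ry13 at 74.8, 90.3 and 84.5. Gpr34 was at 0, 0.341 and 0, Tmem119 at 0, 1.20 and 0, and Olfml3 at 0, 1.88 and 0. Cx3cr1 was at 39.4, 8.71 and 0 and Sparc at 7.88, 4.61 and 4.22. The samples of 75 and 73 cells could not show levels this low, since a count of 0 there allows up to 3 UMIs, or 11.8 and 12.7 CPM. The cells of the same cluster from positive bone (95 and 317 cells in replicates 1 and 2) had Gpr34 at 81.8 and 77.9 and Tmem119 at 27.3 and 28.8 CPM, so this cluster was not uniform across tissues. In alveolar macrophages of positive lung P2ry13 was at 22.8, 34.9, 14.8 and 25.8 and Tmem119 at 0.162, 0.211, 0.335 and 0 CPM.

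The first comparison asks whether the 7 genes differ between cells beside the tumour cells and the other cells of the brain, summed over all kept cells. All 7 were higher in every positive than in every negative sample, where 14.5% of all genes tested were separated in that direction. P2ry12 was at 70.9, 80.0, 189.7 and 535 CPM in positive samples and at 4.81, 15.3, 10.4 and 8.62 in negative samples. Its log2 difference was 4.16 ± 0.75 (SE, edgeR, adjusted p = 0.0279). Gpr34 was at 50.3, 75.6, 298 and 563 in positive and 2.38, 5.80, 12.1 and 6.66 in negative samples (4.90 ± 0.89, adjusted p = 0.0280). Positive replicates 3 and 4 were the highest for both genes. Sparc was at 115.9, 96.8, 401 and 621 in positive and 4.86, 20.2, 10.2 and 5.44 in negative samples (4.61 ± 0.79, adjusted p = 0.0232). Tmem119 was at 27.1, 28.3, 162 and 260.1 against 2.99, 8.96, 7.19 and 4.26 (4.05 ± 0.83, adjusted p = 0.0374). Olfml3 was at 16.0, 10.9, 103.9 and 144.5 against 1.87, 3.95, 4.92 and 1.67 (4.24 ± 0.89, adjusted p = 0.0409). These 5 genes passed the threshold of 0.05, whereas 2.88% of the 11064 genes tested were called higher.

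Cx3cr1 and P2ry13 did not pass in that edgeR fit, while DESeq2 called 1225 of the 11064 genes and all 7 members among them. Cx3cr1 was at 147.4, 149.1, 862 and 997 CPM in positive and 76.4, 60.1, 114.5 and 20.9 in negative samples, with a log2 difference of 2.75 ± 0.74 and an adjusted p of 0.0785 (0.00203 with DESeq2 and up to 0.857 over no filter, the block and left-out clusters). P2ry13 was at 27.1, 47.9, 75.3 and 122.6 against 4.40, 25.2, 10.2 and 10.7, with 2.08 ± 0.62 and an adjusted p of 0.105. With the replicate number as a block P2ry13 passed (log2 2.21, adjusted p = 0.0374, with 0.0148 to 0.619 over DESeq2, no filter, the block and left-out clusters). In sums over all cells, more cells of a type and more RNA per cell cannot be told apart. Microglia made up 3.26%, 3.56%, 22.6% and 45.3% of the cells of positive brain and 0.0488%, 0.412%, 0.638% and 0.595% of those of negative brain.

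With the microglia cluster left out, none of the 7 passed in all brain cells. That fit called far fewer genes of any kind than the 339 of the full fit, as given in the closing section. The log2 difference of Tmem119 went from 4.05 to 0.17, that of P2ry12 to 1.77, of Sparc to 2.62 and of Gpr34 to 2.88 (edgeR, adjusted p = 0.959, 0.19, 0.266 and 0.0626). Microglia supplied 95.2%, 74.7%, 98.1% and 98.2% of the Tmem119 UMIs of positive brain replicates 1 to 4, and 91.9%, 57.1%, 91.3% and 96.8% of those of Olfml3. For P2ry12 the shares were 68.8%, 34.2%, 92.5% and 96.8%, and for P2ry13 they were 24.8%, 29.2%, 80.0% and 87.7%. Replicates 1 and 2, with few microglia, thus drew most of their P2ry13 from other cells. The shares ranged from 24.7% to 96.6% for Gpr34, from 44.4% to 96.7% for Cx3cr1 and from 70.8% to 95.1% for Sparc. In negative brain the microglial share of Tmem119 was 10.3% to 63.9% and that of P2ry13 2.30% to 11.1%, while neutrophils supplied 48.1% to 71.4% of the P2ry13 UMIs there. The call of these genes also rested on single samples, since none of the 7 passed without negative replicate 1, 3 or 4 or without positive replicate 4, and 2 passed without negative replicate 2 or positive replicate 3. Of all genes, 339 were called in either direction with all samples, 3, 61 and 6 without negative replicate 1, 3 or 4 and 7 without positive replicate 4. Without negative replicate 2 or positive replicate 3, 304 and 227 genes were called. For P2ry12 the log2 difference was lowest without positive replicate 4, at 3.20.

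**Figure D3:**
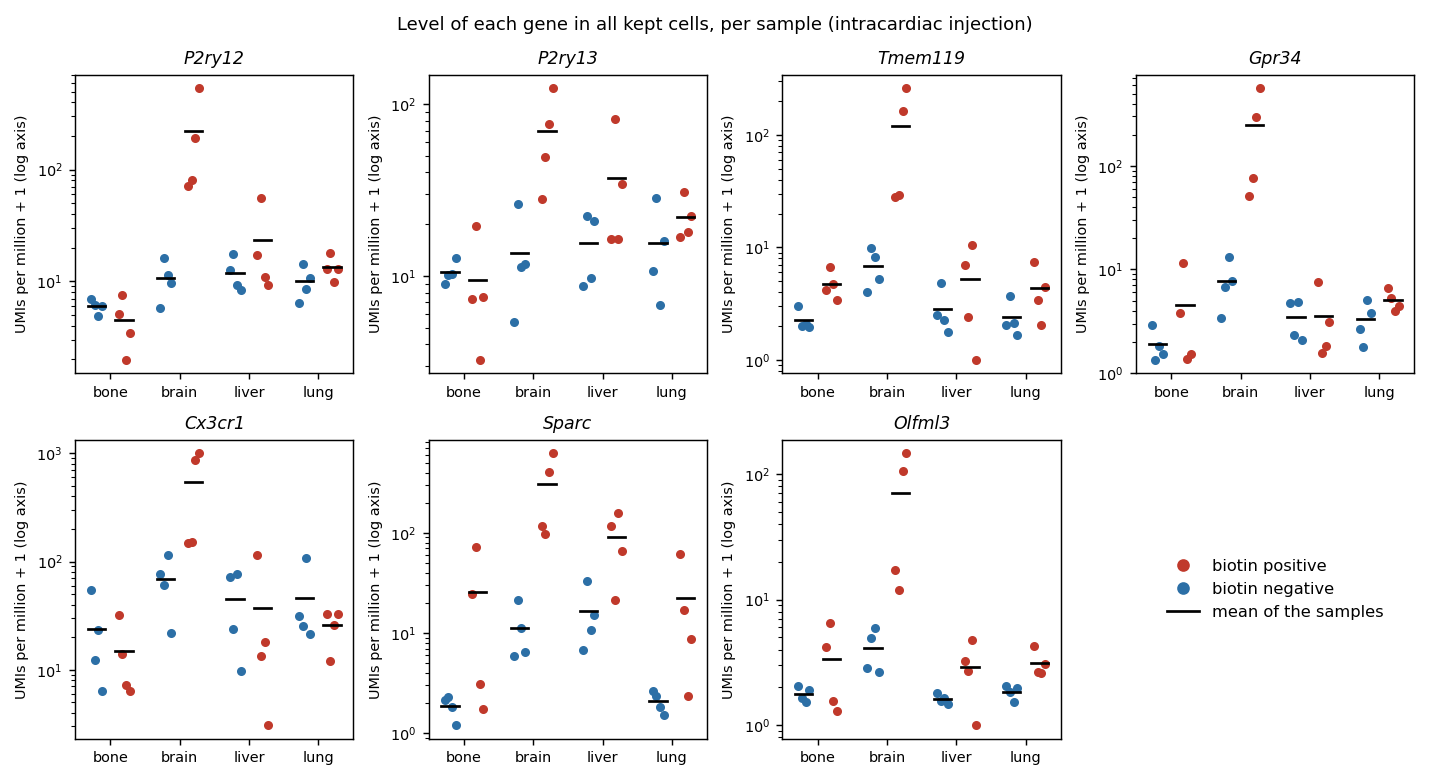
Level of each of the 7 genes summed over all kept cells (CPM, log axis) by tissue and sort in the intracardiac experiment, with 1 point per sample, red for biotin positive and blue for biotin negative. In brain the 4 positive samples of every gene lie above the 4 negative samples, while in bone, liver and lung most genes overlap between the sorts.

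Among mononuclear phagocytes of the brain (monocytes, dendritic cells and the macrophage types together), all 7 genes were higher in positive cells, against 18.6% of the 9373 genes tested. P2ry13 was at 98.3, 57.8, 149.8 and 240.4 CPM in positive and 6.04, 15.1, 10.3 and 14.8 in negative samples (log2 3.29 ± 0.46, adjusted p = 0.00104). Sparc was at 395, 109.1, 839 and 1216 against 14.9, 16.1, 16.2 and 36.8 (4.62 ± 0.70, adjusted p = 0.00138). P2ry12 was at 323, 96.5, 396 and 1117 against 15.6, 32.2, 18.4 and 43.1 (3.84 ± 0.68, adjusted p = 0.00249). In each of these genes positive replicate 2, with 24 microglia beside 538 border-associated macrophages, was the lowest of the positive samples. Gpr34 differed by 4.24 ± 0.84 (adjusted p = 0.0042), Tmem119 by 3.47 ± 0.77 (0.00685), Olfml3 by 3.71 ± 0.83 (0.0071) and Cx3cr1 by 2.43 ± 0.67 (0.0188), all as log2 in edgeR. Cx3cr1 was at 400.2, 177, 1818 and 2090 in positive and 192, 150.5, 219 and 126 in negative samples, so its groups overlapped, as did those of Olfml3. The other 5 were separated, where 25.1% of all genes were separated in that direction.

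Leaving out the microglia cluster split the 7 genes. P2ry12 (log2 2.22), P2ry13 (2.74), Gpr34 (3.17) and Sparc (3.04) were still called higher in positive phagocytes of the brain, where 15.5% of the 9095 genes tested in that fit were. Tmem119 (0.30), Cx3cr1 (0.57) and Olfml3 (1.52) were not. The phagocytes that remained held 851 border-associated macrophages in positive and 231 in negative brain, and the part of that in these values was not tested. Leaving out any 1 sample kept at least 6 of the 7 calls, and Cx3cr1 was lost without negative replicate 4 (adjusted p = 0.0602).

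Restricted to macrophage types of the brain (the microglia, border-associated, Kupffer and alveolar macrophage clusters), none of the 7 genes was called. In this edgeR fit of 5691 genes 0 were called, 593 (10.4%) had an unadjusted p under 0.05 and no member was among them, while DESeq2 called 112 genes and none of the 7. The log2 differences were 1.10 for P2ry12 (adjusted p = 0.669), 1.03 for Gpr34, 0.93 for Sparc, 0.78 for P2ry13, 0.47 for Cx3cr1, 0.46 for Olfml3 and 0.31 for Tmem119 (adjusted p = 0.938). Without microglia the sign of Tmem119 (-2.69), Olfml3 (-1.89), Cx3cr1 (-0.98) and Sparc (-0.80) turned. None of these was called, in a fit that called 0 of all 3976 genes tested. In monocytes of the brain, taken alone, 2 of the 7 genes (P2ry12 and Cx3cr1) passed the filter on low counts, and neither was called.

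**Figure D4:**
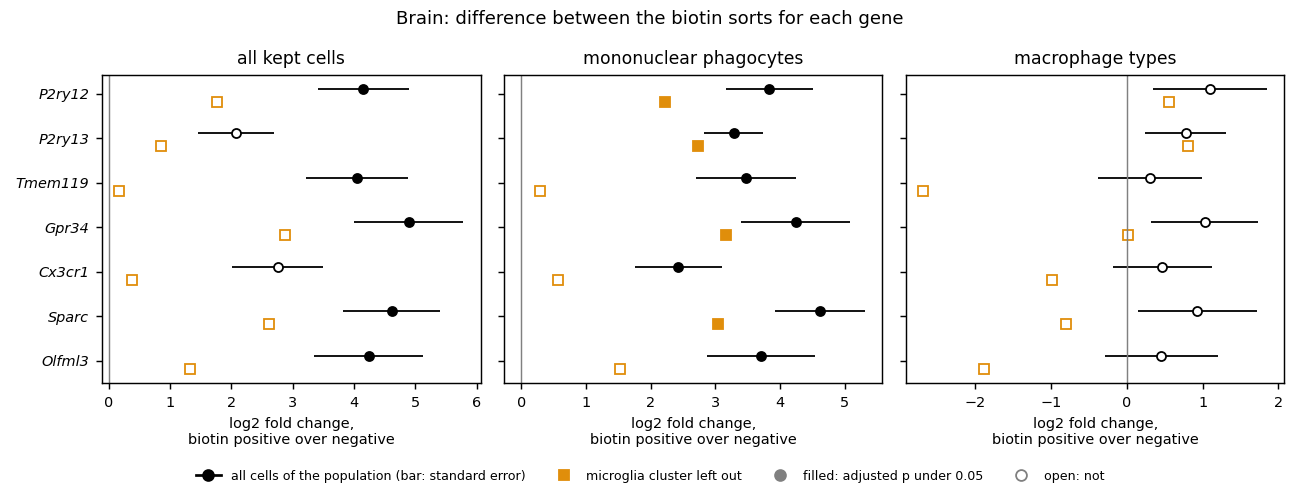
Log2 difference between biotin positive and negative brain (edgeR estimate with its standard error) for the 7 genes in all kept cells, in mononuclear phagocytes and in macrophage types. Black circles use all cells and orange squares leave out the microglia cluster, and filled symbols have an adjusted p under 0.05; the squares of Tmem119 lie near 0 in the first 2 panels (0.17 and 0.30) and at -2.69 in the last.

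The brain was next compared with the mean of bone, liver and lung within 1 sort. Among positive cells, 6 of the 7 genes were higher in brain, where 3.3% of the 12843 genes tested were called higher. Gpr34 differed by log2 6.13 ± 0.69 (edgeR, adjusted p = 0.000114), Olfml3 by 4.85 ± 0.60 (0.000238), Tmem119 by 4.82 ± 0.53 (0.000111), Cx3cr1 by 4.43 ± 0.63 (0.00079) and P2ry12 by 4.35 ± 0.48 (0.000111). P2ry13 was called with the smallest difference (1.79 ± 0.45, adjusted p = 0.0402), and this call was lost in 11 of 16 fits with 1 sample left out. Sparc was not called (3.06 ± 0.82, adjusted p = 0.0513), and it reached 157 CPM in positive samples of the other tissues. DESeq2 called 881 genes in this comparison, all 7 members among them. Without microglia only Gpr34 was called (3.44, edgeR, adjusted p = 0.0108), in a fit that called fewer genes of any kind, as given in the closing section. Among negative cells Olfml3 was called (2.03 ± 0.29, adjusted p = 0.0253, a mean of 3.11 against 0.747 CPM), where 0.0229% of genes, 3 of 13096, were called higher. That call was lost without brain negative replicate 2 or 3 or bone negative replicate 2, and it was lost without microglia (1.53, adjusted p = 0.564). With the replicate block Tmem119 was called as well (2.0, adjusted p = 0.0296, against 0.179 without the block and 0.00509 to 1.0 over DESeq2, no filter, the block and left-out clusters).

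Among positive macrophage types, brain was compared with the other tissues in 4 and 9 samples, and all 7 genes were higher in brain, against 16.4% of the 9879 genes tested. Sparc had a log2 difference of 8.73 ± 0.71 (adjusted p = 7.83e-06), Tmem119 of 6.03 ± 0.79 (0.000117), Olfml3 of 5.97 ± 0.74 (8.86e-05) and Gpr34 of 5.26 ± 0.77 (0.000275). P2ry12 and Cx3cr1 differed by 4.13 ± 0.46 (3.97e-05) and 4.13 ± 0.92 (0.00471), and P2ry13 by 1.67 ± 0.32 (0.00167). All 7 calls were made whichever sample was left out. Sparc and Olfml3 reached at most 2.18 and 1.05 CPM in alveolar macrophages of positive lung, and 7.88 and 1.88 in Kupffer cells of positive liver. These 2 genes may therefore have passed the filter on low counts through the brain samples alone. Over DESeq2, no filter, the block and left-out clusters their adjusted p was at most 9.97e-05 and 0.00969. Without microglia 4 were called, namely Sparc (5.10), Gpr34 (3.23), Olfml3 (3.17) and P2ry12 (1.95), where 12.7% of the 9627 genes tested in that fit were called higher in brain. The brain macrophages that remained were mostly border-associated.

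Whether the difference between the sorts was larger in brain than in the other tissues was tested as an interaction over all kept cells. P2ry12 (log2 4.02 ± 0.68, edgeR, adjusted p = 0.00526) and Gpr34 (4.10 ± 0.93, adjusted p = 0.0499) were called, where 0.279% of the 13963 genes tested were called in that direction. P2ry12 was called in all 32 fits with 1 sample left out (3.04 to 4.33), but Gpr34 lost its call in 25 of them. Cx3cr1 (3.43, adjusted p = 0.108), Olfml3 (2.86, 0.1), Tmem119 (2.84, 0.094), P2ry13 (1.76, 0.336) and Sparc (0.95, 0.766) were not called. With the replicate block P2ry13 (2.0, adjusted p = 0.0420) and Cx3cr1 (3.61, adjusted p = 0.0364) were called as well, with adjusted p-values of 0.042 to 0.878 and 0.0138 to 0.771 over DESeq2, no filter, the block and left-out clusters. Without microglia none of these genes was called, in a fit that called no gene at all, as given in the closing section. The loss of the P2ry12 and Gpr34 calls there can therefore not be read as a result about these genes.

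Outside the brain Gpr34, Tmem119 and Olfml3 were low in sums over all kept cells, the other 4 genes varied between samples, and few differed between sorts. Over the 12 positive samples of bone, liver and lung the median was 9.46 CPM for P2ry12, 16.4 for P2ry13, 2.87 for Gpr34, 14.9 for Cx3cr1, 3.31 for Tmem119, 22.1 for Sparc and 1.88 for Olfml3. The highest of these 12 samples reached 157 CPM for Sparc, 114 for Cx3cr1, 81.2 for P2ry13 and 55.0 for P2ry12, but 10.6 for Gpr34, 9.42 for Tmem119 and 5.52 for Olfml3. In lung, Sparc was at 60.6, 16.0, 1.32 and 7.72 CPM in positive and 1.64, 1.36, 0.834 and 0.527 in negative samples over all kept cells. It was called higher in positive lung (3.99 ± 0.97, edgeR, adjusted p = 0.023), where 11.5% of genes were called higher, and the 2 sorts overlapped through positive replicate 3. The call was lost without negative replicate 1, 3 or 4 (adjusted p up to 0.0672), and endothelial cells supplied 52.5%, 25.0%, 0% and 41.2% of the Sparc UMIs of positive lung replicates 1 to 4. In replicate 1 another 611 of the 1476 Sparc UMIs came from 43 cells of the unnamed cluster led by Clu and Cpa3, and in replicate 2 another 267 of 380 came from 4 such cells. Olfml3 was the 1 member that did not overlap in lung, at 3.28, 1.64, 1.62 and 2.04 CPM in positive and 1.04, 0.850, 0.521 and 0.989 in negative samples, where 17.7% of genes were separated in that direction. It was not called (1.05 ± 0.38, adjusted p = 0.0848). Sparc and Olfml3 passed the filter in lung through 4 of 4 positive samples and 2 of 4 negative ones, and without the filter Sparc was called (4.00, adjusted p = 0.0149) and Olfml3 was not. No cell of the microglia cluster came from lung. In lung phagocytes Cx3cr1 was lower in positive cells, at 30, 5.37, 34.8 and 47.2 against 93.5, 57.0, 167.7 and 63.5 CPM (-2.11 ± 0.59, adjusted p = 0.0136, where 22.5% of genes were called lower), and the sorts did not overlap (11.4% of genes were separated in that direction). That call was made in all 8 fits with 1 sample left out. Alveolar macrophages numbered 3891 in positive and 31 in negative lung, and classical monocytes supplied 35.1% to 52.5% of the Cx3cr1 UMIs of negative lung samples, whose part in the difference was not tested.

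P2ry13 was higher in positive phagocytes of lung, at 21.5, 34.7, 14.4 and 19.1 against 3.95, 13.8, 8.55 and 3.25 CPM (1.31 ± 0.41, edgeR, adjusted p = 0.0224, where 24.8% of genes were called higher and 35.7% were separated, as P2ry13 was). This call was lost without negative replicate 1 or 4 or positive replicate 2 (adjusted p up to 0.077). In liver phagocytes P2ry13 was at 16.5, 88.6 and 54.9 in 3 positive samples and 4.37, 11.7, 9.04 and 6.11 in negative samples (2.49 ± 0.54, adjusted p = 0.0383, where 4.37% of genes were called higher and 23.7% were separated, as P2ry13 was). The call was lost in 6 of 7 fits with 1 sample left out, all but that without positive replicate 1, and the difference was 1.72 to 2.95 over the 7 fits. P2ry12 in the same cells was at 31.6, 60.9 and 54.9 against 17.5, 24.7, 15.5 and 10.7, with an adjusted p of 0.0529 and, with the replicate block, 0.0381 (log2 1.03, 0.0203 to 0.0381 over DESeq2, no filter and the block). Kupffer cells numbered 976 in positive and 39 in negative liver and supplied 73.5% of the P2ry13 and 69.4% P2ry12 UMIs of positive liver, and their part in the difference was not tested.

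In all kept cells of bone (7 of the 7 genes tested) and of liver (6 tested, without Olfml3) edgeR called none of them and no gene at all, although 983 and 1571 genes (7.84% and 13.3%) had an unadjusted p under 0.05, among them 2 and 1 of the members tested. DESeq2 called 53 and 431 genes there, with Tmem119 and Sparc among them in bone and Sparc in liver. Tmem119 was at 3.21, 5.74, 3.72 and 2.41 CPM in positive bone and 2.04, 1.01, 1.10 and 0.959 in negative bone, which did not overlap (3.88% of genes were separated in that direction). Sparc was at 116.6, 20.5, 157 and 64.2 in positive liver and 5.70, 32.1, 9.62 and 14.3 in negative liver, which overlapped. Endothelial cells supplied 37.3% to 92.3% of the Sparc UMIs of positive and 86.8% to 95.8% of those of negative liver samples. Of bone phagocytes, 3 of the 7 genes passed the filter on low counts and none was called (28 genes, 0.296%, were called higher). In monocytes P2ry12 and Cx3cr1 passed the filter in all 4 tissues and P2ry13 in all but brain, and edgeR gave 0 calls among them and 0 among all genes. There 503, 550, 214 and 482 genes of bone, brain, liver and lung (5.48%, 6.72%, 2.5% and 6%) had an unadjusted p under 0.05, none of them a member, and DESeq2 called 3, 2, 1 and 15 genes, again none a member. Of liver macrophage types 3 members were tested, with 0 calls among all genes with edgeR (120 genes, 3.51%, at an unadjusted p under 0.05) and with DESeq2.

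The IIA experiment used another chemistry, so its levels are not set beside those above. No microglia cluster was found in its bone, and the macrophage cluster held 832 positive and 318 negative cells. Over all kept cells Tmem119 was higher in positive cells of the 6 injections, at 8.86, 28.2, 21.5, 6.51, 9.57 and 6.23 CPM (lowest 6.23, highest 28.2), against 3.81, 3.44, 2.74, 1.82, 1.32 and 1.47. The sorts did not overlap, and the log2 difference was 2.27 ± 0.44 (edgeR, adjusted p = 0.00115), where 50.2% of the genes tested were called in either direction, 27% as higher, and 22% were separated as Tmem119 was. Macrophages supplied 32.4%, 37.9%, 53.2%, 0%, 6.37% and 16.2% of the Tmem119 UMIs of positive injections 1 to 6. Granulocyte precursors supplied 266 of 594 such UMIs, but 204 of the 266 came from injection 5, which held 1055 of these cells, and in injections 2 and 3 they supplied 9 of 103 and 10 of 139. Sparc was at 141, 703, 434, 6.98, 27.4 and 3.53 in positive and 16.0, 44.0, 11.1, 5.45, 3.53 and 10.6 in negative cells (3.67 ± 1.16, adjusted p = 0.0193). The sorts overlapped for Sparc, and stromal cells supplied 86.7% to 99.6% of its UMIs in positive and 66.7% to 96.7% in negative cells. P2ry13 was lower in positive cells (-1.07 ± 0.31, adjusted p = 0.0134), with 1.00 to 2.74 CPM in positive and 1.96 to 4.22 in negative cells, which overlapped, where 23.2% of genes were called lower.

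In IIA mononuclear phagocytes 3 of the 7 genes (P2ry12, Cx3cr1 and Olfml3) passed the filter on low counts. Olfml3 passed it through the positive cells alone, where 6 of 6 samples and 0 of the 6 negative ones reached the required 5.66 CPM, so its call in that fit is not read. Tmem119 failed because 5 of the 6 positive samples reached that level and injection 4 held 0 UMIs. Olfml3 was at 7.52, 5.97, 7.61, 22.0, 10.5 and 6.41 CPM in positive cells and at 1.36, 0.972, 3.28, 1.20, 0.450 and 1.29 in negative cells of injections 1 to 6. These values rest on few molecules, 57 UMIs over the positive and 15 over the negative samples, with 3 and 2 UMIs in positive injections 4 and 6. Without the filter, edgeR called Tmem119 (3.20 ± 0.48, adjusted p = 5.21e-05), Olfml3 (2.64 ± 0.44, 0.000163) and Gpr34 (2.63 ± 0.61, 0.00355) higher in positive phagocytes, where 10.3% of 19723 genes were called higher. Macrophages supplied 16.7% to 40.0% of the Olfml3 UMIs of all positive cells and stromal cells 0% to 66.7% across injections, so the phagocyte value covers only a share of them.

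**Figure D5:**
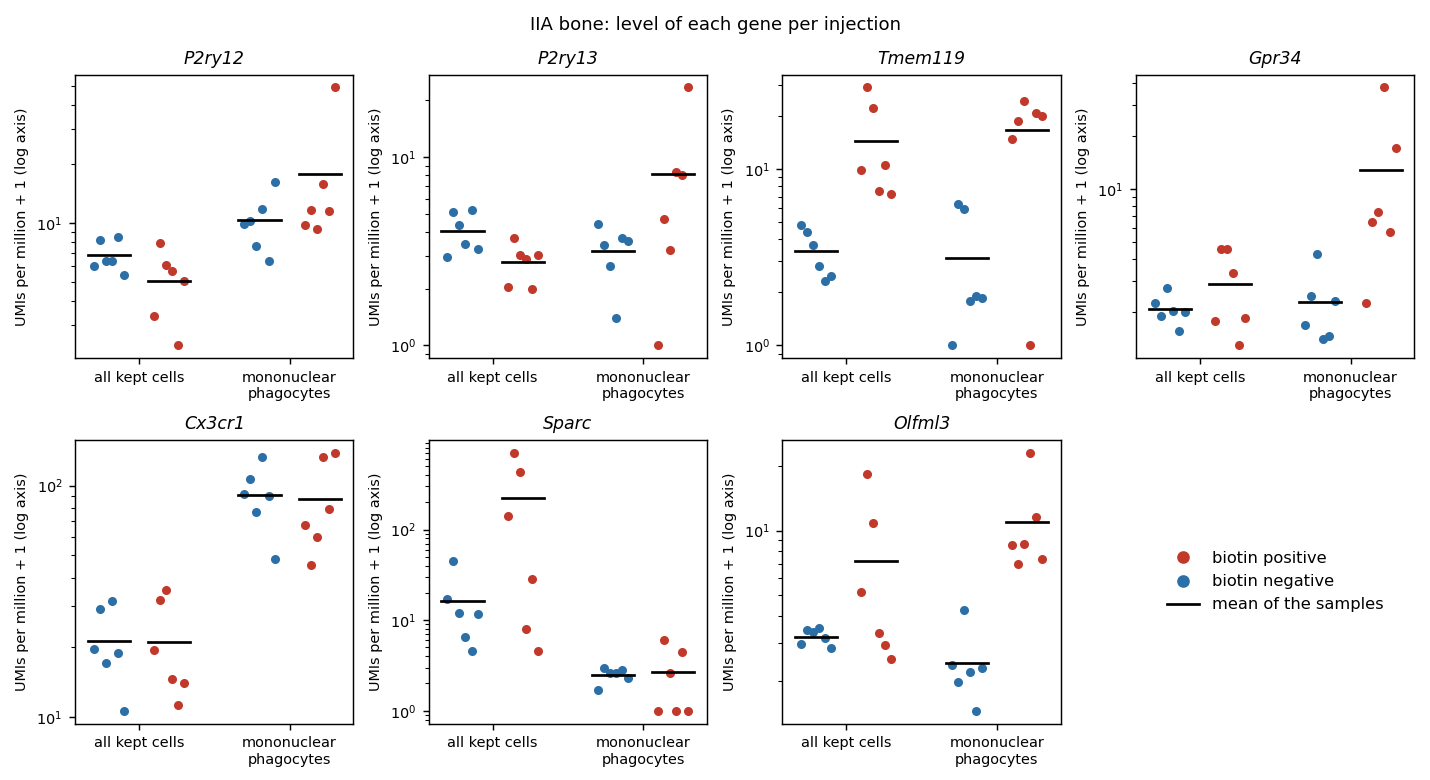
Level of each of the 7 genes in IIA bone (CPM) for all kept cells and for mononuclear phagocytes, with 1 point per injection, red for biotin positive and blue for biotin negative. Tmem119 in all kept cells (6.23 to 28.2 against 1.32 to 3.81) does not overlap between the sorts, while the phagocyte values of Olfml3 rest on 57 and 15 UMIs.

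The other genes of the microglial programme were read from lists in the same fits, and several of them also served to name the microglia cluster. In brain phagocytes, 14 of the 19 other identity genes tested (of 20 listed) were higher and 1 lower in positive cells, with a median log2 difference of 2.54 against 0.02 over all genes, of which 18.6% were called higher and 18.9% lower. Sall1, a transcription factor of microglia, differed by 5.14 ± 1.03 (edgeR, adjusted p = 0.00435), and Crybb1, Siglech and Adgrg1 by 4.72, 4.71 and 4.44. Itgam, an integrin that monocytes share, was the lower one (-0.78) and is named after its value was seen. Of 17 disease-associated microglia genes tested, 10 were higher and 2 lower (median 1.5), with Igf1, a growth factor, at 4.41 and Lgals3, a galectin of monocytes and macrophages, at -2.89. The homeostatic genes and genes of the disease-associated list were therefore higher in the same sort.

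Of the 16 TGF-beta and lineage factor genes tested in brain phagocytes, 8 were higher and 1 lower in positive cells (median 1.03), in the fit where 18.6% of all genes were higher and 18.9% lower (median 0.02). The TGF-beta receptor gene Tgfbr1 differed by 2.36, the inhibitory Smad7 by 2.39 and the transcription factor Maf by 3.47. Of 7 other purinergic genes tested, 4 were higher and 1 lower, with the ATP-gated channel P2rx7 at 3.0, the ectonucleotidase Entpd1 at 2.21, the UDP receptor P2ry6 at 1.93 and the adenosine receptor Adora2b at -3.01. Of 4 tested genes of the fractalkine and CSF1 receptor axis, Csf1 (4.07) and Csf1r (2.13) were higher. Of 2 tested genes of the SPARC and olfactomedin families Olfm1 was lower (-1.97), unlike Sparc and Olfml3.

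Over all kept brain cells the identity list moved in the same direction, with 9 of 19 tested genes higher and none lower (median 2.26 against -0.03, with 2.88% of all genes called higher). In positive macrophage types of brain against the other tissues, 16 of 20 identity genes were higher (median 2.81 against 0.05, with 16.4% of all genes called higher and 12.8% lower), and 11 of 16 TGF-beta and lineage factor genes were higher, among them Mef2c (4.20) and Smad3 (2.62). The disease-associated list was split there, with 6 higher and 7 lower, Cst7 at 5.41 and Lpl at -3.27. In the interaction 6 of 20 identity genes were called, all larger in brain, with Crybb1 at 7.40 and Siglech at 5.60, where 0.279% of all genes were called so. In brain macrophage types between the sorts 0 of 20 identity genes were called, but so were 0 of all 5691 genes tested.

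The lists gave another picture outside the brain. In lung phagocytes 7 of 14 tested identity genes were lower and 1 higher in positive cells, with Itgam at -2.76 and Csf1r at -1.92, while 11 of 17 disease-associated genes were higher and 3 lower, with the lipase Lpl at 5.02. Of all genes in that fit 22.5% were called lower and 24.8% higher. The TGF-beta and lineage list had 8 of 16 lower and 3 higher there, with Smad3 at -2.71. In liver phagocytes 3 of 15 identity genes and 5 of 16 disease-associated genes were higher and none lower, with Igf1 at 4.58 and Lgmn at 2.98, where 4.37% of all genes were called higher. In IIA bone phagocytes 14 of 16 tested disease-associated genes were higher (median 2.67 against -0.02), led by Igf1 (8.0 ± 0.65, adjusted p = 1.14e-06), Axl, Gpnmb and Spp1 (4.01, 3.96 and 3.62). There 9 of 14 tested identity genes were higher and 1 lower, with Lgmn at 3.28 and Trem2 at 2.16, where 16.2% of all genes were called higher and 14.4% lower.

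Likeness of pattern was described by Pearson's r of log2(CPM + 1) over 277 profiles of a class in a sample, among 12202 genes. These profiles share samples, depth and cell classes, so r is a description only. The genes most like P2ry12 were Csf1r (0.69), Tlr7 (0.68) and Cd68 (0.68), and those most like P2ry13 were Cd33 (0.77), Atp6v1g1 (0.73) and Trpm2 (0.73). Tmem119 was nearest to Ccl12 (0.67), Kcnk13 (0.64) and G530011O06Rik (0.63), and Gpr34 to Neurl1a (0.60), Fcrls (0.58) and Tdrkh (0.58). Cx3cr1 was nearest to Abca9 (0.78), Ptpro (0.77) and Pid1 (0.76), and Sparc to Amotl1 (0.86), Adamts1 (0.86) and Sgce (0.81). Olfml3 was nearest to Ak1 (0.65), Tmem119 (0.63) and Fcrls (0.61). Among the 7 themselves P2ry12 and P2ry13 had an r of 0.66, and Sparc and P2ry13 of -0.01.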

How the data were processed

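The deposited values are UMI counts for each gene in each cell, which the authors made with Cell Ranger (6.1.2 for intracardiac samples and 7.1.0 for IIA, per the file headers). Genome mm10 is named in the submitters' processing notes, while the sources used here give no annotation. Intracardiac samples were demultiplexed by the authors. IIA cells were assigned here to a hashtag with at least 10 counts and 3 times the second, matched to the labels by number. Kept cells had at least 500 UMIs and 200 genes and at most 15% mitochondrial UMIs. Doublets were not removed, except in an alternative that left out the top 5% of Scrublet scores (2768 cells).

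Clusters came from scanpy 1.11.5 (2000 variable genes without the 7, 30 components, 15 neighbours, Leiden resolution 1), and took the list with most members among 100 leading genes (at least 3), by a rule set after the data were seen. Counts were summed per sample (at least 10 cells) and tested with edgeR 4.0.16 (filterByExpr, TMM, quasi-likelihood, Benjamini-Hochberg over all genes, threshold 0.05). DESeq2 1.42.0, no filter, another clustering, hashtag ratio 5, left-out samples and left-out clusters were alternatives. On data simulated for all brain cells (11064 genes), edgeR recovered 86% of genes changed by log2 2 and 99% by log2 4. Limits for a count of 0 cover counting error only.

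The 7 genes were named throughout. Per comparison and list, up to 4 called genes of largest change could be named, and 3 most similar genes per member. Members and lists were chosen with earlier results of these data known. Same-numbered samples deviated together (every r over 0.1) in all bone cells (0.448 to 0.738), all brain cells (0.213 to 0.629) and all liver cells (0.256 to 0.501). They also did in brain phagocytes (0.194 to 0.402), liver phagocytes (0.238 to 0.416) and lung phagocytes (0.238 to 0.414). The same held in macrophage types of brain (0.193 to 0.475) and liver (0.357 to 0.561), and in monocytes of brain, liver and lung. It did not hold in all lung cells (lowest -0.092), bone phagocytes (0.016), bone monocytes (0.034) or IIA (0.051 in phagocytes). The labels do not say what the number marks.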

Additional observations from a re-analysis of the deposited data

Results flagged for a closer look

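In 4 of 70 groups of 4 to 6 samples 1 sample stood apart from the others, and chance alone gives about 1 in 20. Sparc in all kept cells of IIA bone was at 44.0 CPM in negative injection 2, where the nearest was 16.0. Tmem119 in negative bone was at 2.04 in replicate 1, where the nearest was 1.10. Cx3cr1 in positive liver was at 114.3 in replicate 1 against 17.0, and Cx3cr1 in negative lung was at 105.6 in replicate 3 against 30.6. The difference between the sorts was larger in brain than in the other tissues for P2ry12 (log2 4.02, adjusted p = 0.00526) and Gpr34 (log2 4.10, adjusted p = 0.0499) in the edgeR interaction.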

How the results depend on the processing

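With DESeq2, 2 of the 7 genes were called in all bone cells and 1 in all liver cells (0 with edgeR), where it called 53 of 12533 and 431 of 11854 genes. It called 2 in liver phagocytes (1 with edgeR, 1063 of 9934 genes), 4 in negative brain against the other tissues (1, with 16 of 13096 genes) and 5 in the interaction (2, with 210 of 13963 genes). Without the filter on low counts 2 were called in bone phagocytes (0 with it, 420 of 17532 genes), 2 in liver phagocytes (1, with 1146 of 17888), 1 in bone monocytes (0, with 21 of 17119), 1 in the interaction (2, with 31 of 24352) and 3 in IIA phagocytes (1, with 3524 of 19723). The 1 in IIA phagocytes is the Olfml3 call that is not read above. Without the microglia cluster, an alternative added after the data were seen, the number called was 0 in all brain cells (5, with 16 of 10926 genes called), 4 in brain phagocytes (7, with 2682 of 9095), 1 in positive brain against the other tissues (6, with 154 of 12781), 0 in the negative cells (1, with 2 of 13092), 4 in positive macrophage types (7, with 2299 of 9627) and 0 in the interaction (2, with 0 of 14027, of which 1115 had an unadjusted p under 0.05). There the signs of Tmem119, Sparc and Olfml3 turned in the interaction (-1.05, -1.04 and -0.064) and those of Tmem119, Cx3cr1, Sparc and Olfml3 in brain macrophage types (-2.69, -0.98, -0.80 and -1.89).

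With the replicate number as a block, 2 of the 7 genes were called in liver phagocytes (769 of 9934 genes), 2 in negative brain against the other tissues (14 of 13096) and 4 in the interaction (142 of 13963). The block turned Tmem119 (-0.11), Cx3cr1 (-0.059) and Olfml3 (-0.0041) in brain macrophage types, none of them called, and it changed no other count of the 7 genes called by more than 1.5 times. Over fits with 1 sample left out, the calls were 0 to 6 in all brain cells, 0 to 1 in all lung cells, 0 to 1 in bone phagocytes, 0 to 3 in liver phagocytes, 1 to 3 in lung phagocytes, 0 to 2 in negative brain against the other tissues, 1 to 5 in the interaction and 0 to 2 in IIA phagocytes. Tmem119 ranged from -0.23 to 0.68 and Olfml3 from -0.032 to 0.86 in brain macrophage types, lowest without positive replicate 4. The cause of these changes was not tested.

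Without thinning, the share of microglia with a UMI was 92.5% for P2ry12, 74.0% for P2ry13, 87.2% for Tmem119, 88.2% for Gpr34, 97.7% for Cx3cr1, 94.8% for Sparc and 71.1% for Olfml3. For single genes in a called state, 358 of 436 left-out fits and 210 of 230 other alternatives kept the direction and the side of the threshold. Microglia levels rest on 17 to 303 cells a sample, which limits the smallest samples most.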
